A study of Mus musculus with 2 samples.

Results

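Interferon-stimulated genes and their regulators were measured in the wall of the mouse aorta. The group was chosen by gene name. Every probe whose name on the array is 1 of 44 listed members, or an older name of it, was taken on both arrays. The probe used for Gbp3 is named Gbp4 on the array and was assigned through RefSeq. The 44 names led to 45 genes by current symbol, because the probes that carry the name Ifi27 now belong to Ifi27l2a and the gene now called Ifi27 was reached through its older name D12Ertd647e. They held 71 of the 41150 probes on the array. Of these genes 43 were measured, with 42 of them well above background on both arrays whichever region was read, among 21367 genes measured in all.

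RNA of the aortic arch, the atherosclerosis-prone region, was compared with RNA of the central thoracic aorta, the atherosclerosis-resistant region. Both regions came from the same kind of animal, wild-type C57Bl/6 mice aged 16 weeks, without treatment named in the labels. The arch segment took in the aortic root, the arch itself and a further 2 mm of thoracic vessel, and the thoracic segment was the stretch of 6 mm beyond it. All aortas had been perfused with triton X-100, a detergent, to strip the endothelium. For each region RNA from 6 mice (3 males and 3 females) was combined in 1 pool, and both pools were hybridised to 2 two-colour arrays with the dyes swapped, so that arch RNA carried Cy5 on array 1 but Cy3 on array 2. The 2 arrays therefore measure the same RNA. There is no replicate of either region, no test was possible, and the spread between arrays is technical.

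Each ratio is given on the log2 scale with the arch on top, as the mean of both arrays, so that a positive value means a higher level in the arch. The figure after ± says how far each array lay from the mean. Intensities are normalised brightness in arbitrary units, with an offset of 50 units added to every spot, and they serve to compare the regions at 1 probe, not 1 probe with another. A difference was called where both arrays showed at least 1.5-fold with the same sign. In a pool of whole tissue, fewer cells of a type and less RNA per cell cannot be told apart.

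Median spot signals per channel lay between 87.1 and 97.1 units over local backgrounds of 40 to 48 units, and 71.3% to 81.5% of gene spots were well above background. Smooth muscle markers, the defining markers of the labelled cell type, were all measured (9 of 9, median ratio −0.06, 0 called), with summed intensities of 159468 and 150397 in the arch and 157985 and 154537 in the thoracic aorta. Of 10 endothelial markers 9 were measured, 8 of them well above background in all 4 channels. Pecam1 and Cdh5, which define endothelium, had 68.5 and 71.9 units (Pecam1) and 68.5 and 72.5 units (Cdh5) in the arch against 66.8 and 75.6 units and 70.0 and 76.2 units in the thoracic aorta.

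Interferons are secreted proteins, and cells release those of type I on sensing foreign or misplaced nucleic acid. Interferons bind receptors on the same or neighbouring cells, which activate STAT and IRF transcription factors. A complex that holds STAT2 and IRF9 binds the interferon-stimulated response element (ISRE) in the promoters of interferon-stimulated genes, and the gamma-activated site (GAS) is another element of such promoters. The induced proteins degrade or bind viral RNA, trap virus particles, restrain vacuolar microbes and feed back on the pathway. In arteries, interferon signalling is studied as 1 arm of the inflammatory response in macrophages, smooth muscle and endothelium.

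The 4 promoters shown are those of the 3 measured members with the highest ratios among those with a RefSeq promoter (Ifit1, Bst2 and Ifit3) and of Isg15, a classical interferon-induced gene whose levels were close in the regions. Each runs from 250 bases before to 50 bases after the annotated start, 5′ to 3′ on the strand of the gene, from RefSeq sequence of GRCm38.p6. Capitals mark matches on either strand to the ISRE core, which is GAAA, any 2 bases and GAAA again, and overlapping matches are joined. The regions are chr19:34640639-34640938 on the plus strand (Ifit1), chr19:34583279-34583578 on the plus strand (Ifit3), chr8:71537423-71537722 on the minus strand (Bst2) and chr4:156200769-156201068 on the minus strand (Isg15).
Ifit1: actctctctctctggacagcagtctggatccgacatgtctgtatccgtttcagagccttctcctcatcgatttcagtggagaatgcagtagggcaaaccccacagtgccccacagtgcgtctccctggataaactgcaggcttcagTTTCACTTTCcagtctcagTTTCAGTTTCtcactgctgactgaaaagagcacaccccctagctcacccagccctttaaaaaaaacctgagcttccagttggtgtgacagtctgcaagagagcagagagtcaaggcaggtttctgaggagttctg
Ifit3: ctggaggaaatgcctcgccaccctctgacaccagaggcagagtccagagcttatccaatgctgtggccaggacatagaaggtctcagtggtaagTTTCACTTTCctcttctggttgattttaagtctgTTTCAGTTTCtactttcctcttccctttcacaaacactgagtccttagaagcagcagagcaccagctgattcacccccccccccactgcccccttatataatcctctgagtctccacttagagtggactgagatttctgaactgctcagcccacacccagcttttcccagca
Bst2: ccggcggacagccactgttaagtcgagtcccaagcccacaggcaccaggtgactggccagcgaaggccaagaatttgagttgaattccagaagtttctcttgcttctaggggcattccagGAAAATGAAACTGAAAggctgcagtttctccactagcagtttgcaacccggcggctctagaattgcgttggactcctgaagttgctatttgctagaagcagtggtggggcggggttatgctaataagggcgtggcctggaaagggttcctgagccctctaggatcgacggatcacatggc
Isg15: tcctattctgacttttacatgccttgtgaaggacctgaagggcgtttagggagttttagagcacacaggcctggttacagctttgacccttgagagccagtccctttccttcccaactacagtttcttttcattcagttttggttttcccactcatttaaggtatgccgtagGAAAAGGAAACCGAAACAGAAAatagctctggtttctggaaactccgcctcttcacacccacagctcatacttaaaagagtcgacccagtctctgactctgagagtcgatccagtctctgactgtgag

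Ifit1 and Ifit3 hold the same pair of matches on the minus strand, TTTCACTTTC and TTTCAGTTTC. They begin 104 and 85 bases before the start of Ifit1 and 156 and 122 bases before that of Ifit3. Of 32851 promoters in the table, 6 hold both, from 6 genes. The 2 members among these are Ifit1 and Ifit3 themselves, from which the pair was taken. In Bst2 the matches GAAAATGAAA and GAAACTGAAA overlap, at 130 and 124 bases before the start. In Isg15 there are 3 overlapping matches, GAAAAGGAAA, GAAACCGAAA and GAAACAGAAA, at 78, 72 and 66 bases before the start.

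Of the 45 member genes 38 had a promoter in that table, with 45 promoters between them. Dhx58, Usp18, Oas2, Mx1, Mx2, Ifi27l2a and Ifi27 had no entry. The ISRE core, searched on both strands, was present in 19 of the 45 member promoters (42.2%), against 3.44% of all 32851 promoters of the same length. The GAS letters TTCNNNGAA, which read alike on both strands at their fixed bases, were present in 13 (28.9%), against 8.30% of all. A match is a description of letters and not a measured binding site. Ifi27l2a, the member with the highest ratio, and the others without an entry could not be compared by motif. Among the rest, the ratios of measured members with and without the ISRE core had the same rounded median. It was 0.07 over 18 genes with a match (14 above 0) and 0.07 over 18 genes without one (15 above 0).

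1 member was called. Ifi27l2a, a small interferon-inducible membrane protein, was higher in the arch at 1.98-fold. No member was called lower. Over all measured genes 0.257% were called higher and 0.229% lower, and 0 followed the dye. The other members were within 1.5-fold on at least 1 array. Their highest ratios were those of Ifit1 (1.29-fold), Bst2 (1.27-fold), Ifit3 (1.23-fold) and Oasl2 (1.21-fold), all induced antiviral effectors, and the lowest was that of the exonuclease gene Isg20 (0.91-fold).

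The members as a list lay slightly above 0. Their median ratio was 0.07 (0.06 on array 1 and 0.09 on array 2, and 0.07 without Ifi27l2a), while that of all measured genes was 0.0023. Of 43 measured members 27 (62.8%) were above 0 on both arrays, against 28.4% of all genes, and 2 (4.65%), Isg20 and Rsad2, were below 0 on both arrays, against 26.5% of all genes. The other 14 pointed opposite ways on the arrays. Signs were uneven in lists outside the pathway too. Of 10 housekeeping genes 5 were above 0 and 0 below 0 on both arrays. Of 9 smooth muscle markers 0 were above 0 and 4 below 0 on both. Most member ratios are small. Of 43 members 34 (79.1%) had a mean ratio within 0.2 of 0, as did 93.1% of all genes. The distances of array 1 from the mean of the arrays, taken with their sign, had an SD of 0.08 over members and 0.07 over all genes. At a fold of 1.2 on each array, a threshold chosen after the values were seen, Ifi27l2a, Ifit1 and Bst2 were higher, against 1.52% of all genes, and 0 members were lower, against 1.01%.

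The balance of signs depended on the normalisation within the array. Median centring left Ifi27l2a as the 1 called member, with 0.131% of all genes called higher and 0.351% lower. Used in place of loess, it put 16 members above 0 on both arrays (37.2%, against 18.9% of all genes) and 12 below (27.9%, against 47.2%), and the members' median was 0.03 where that of all genes was −0.04. The distance between these medians was 0.07 in either case.

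**Figure D1:**
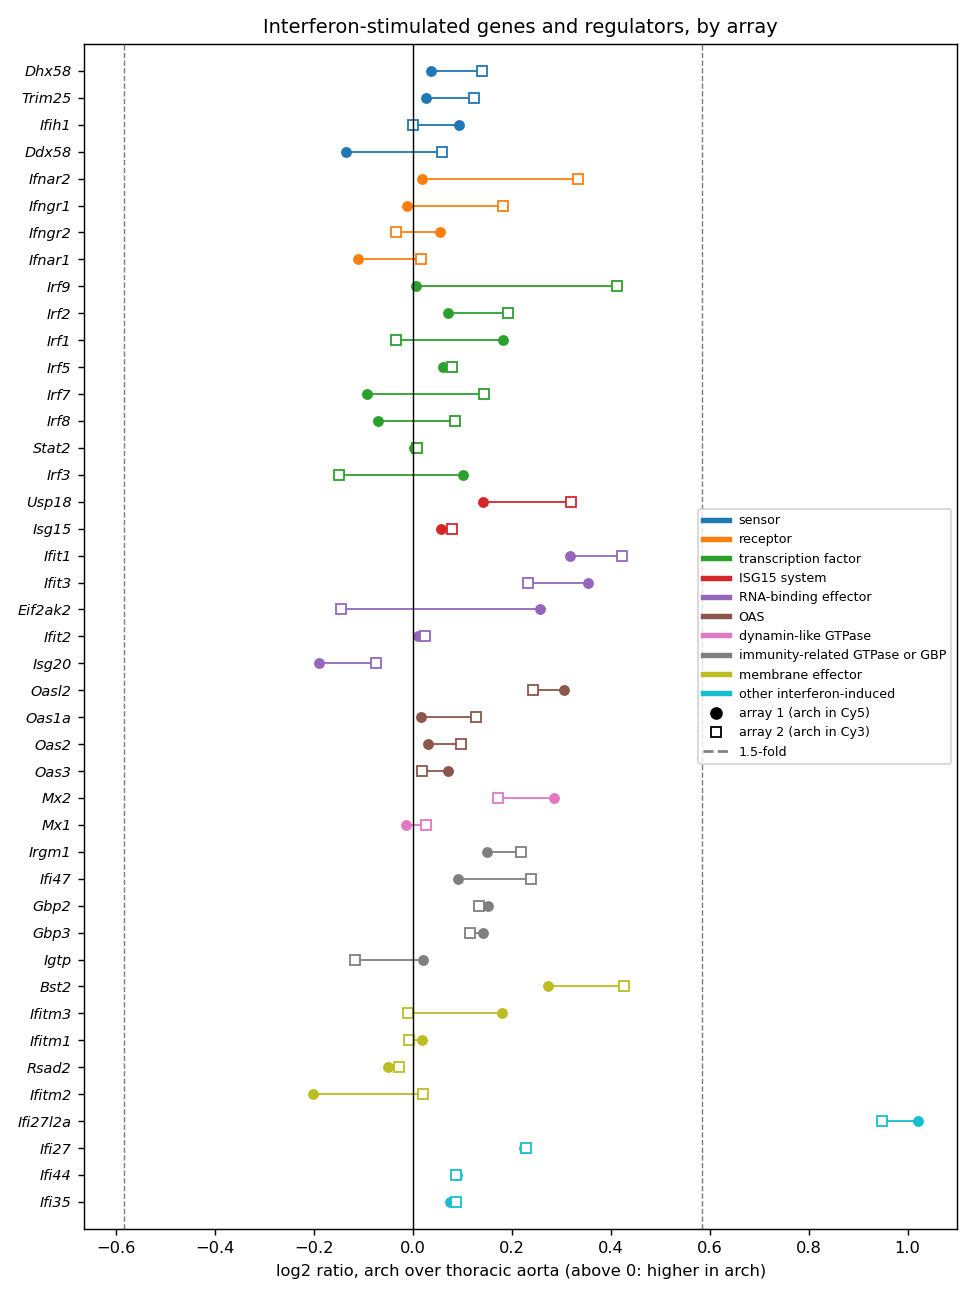
Log2 ratio of arch over thoracic aorta for each of the 43 measured members on array 1 (filled circles) and array 2 (open squares), grouped by role, with dashed lines at 1.5-fold. Ifi27l2a is the 1 gene beyond the line on both arrays, 27 genes have both symbols right of 0, and long bars such as those of Irf9 and Eif2ak2 show arrays that disagree.

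**Figure D2:**
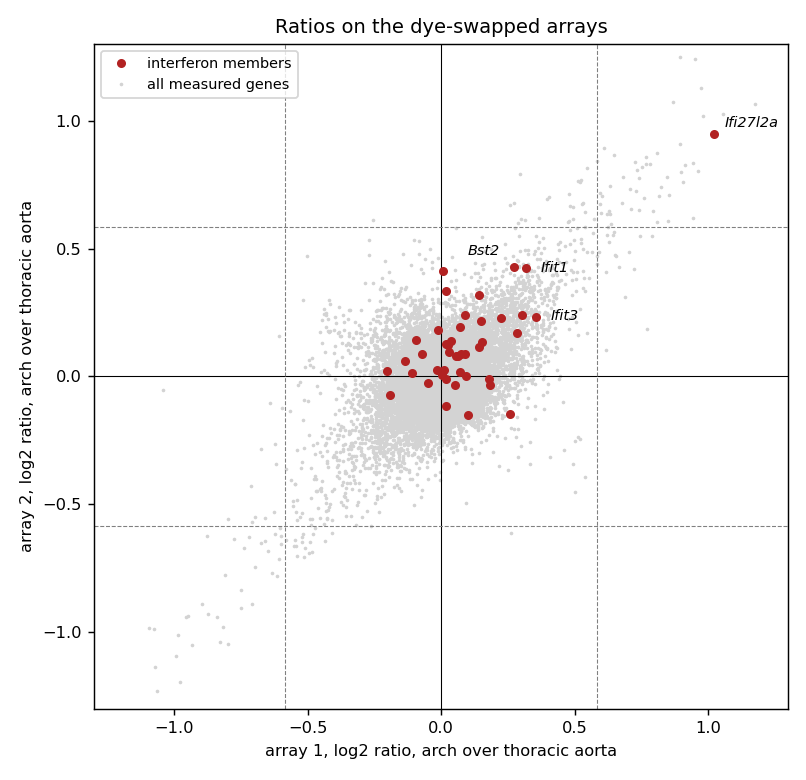
Log2 ratios on array 1 (horizontal) and array 2 (vertical) for the measured members (red) and all measured genes (grey), with dashed lines at 1.5-fold and 21 genes beyond the axes left out. Ifi27l2a lies with the genes that were high on both arrays, Bst2, Ifit1 and Ifit3 lie at the upper right edge of the main cloud, and most other members lie within it.

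Upstream of type I interferon itself act the sensors of viral RNA and their activator. Ifih1 (MDA5), Ddx58 (RIG-I) and Dhx58 (LGP2) are cytosolic helicases that bind viral RNA, and Trim25 is the ubiquitin ligase that activates RIG-I. None was called. Dhx58 measured 0.09 ± 0.05, Trim25 0.07 ± 0.05 and Ifih1 0.05 ± 0.05. Ddx58 had 88.7 and 89.3 units in the arch pool on arrays 1 and 2, against 97.4 and 85.7 units in the thoracic pool, a ratio of −0.04 ± 0.10 whose sign differed between the arrays. Another Ddx58 probe, designed on a cDNA clone, gave 84.9 and 96.6 units in the arch against 73.6 and 80.6 units in the thoracic aorta (0.23 ± 0.03). The probes of Ddx58 thus disagreed in sign, and with these ratios neither reached 1.5-fold. With the scanner software's own ratios the cDNA clone probe measured 0.81 on array 1 and 0.64 on array 2, which met the rule. The first probe then measured −0.29 and 0.11. With an offset of 0 the cDNA clone probe measured 0.54 and 0.62 and did not meet the rule on array 1. Ddx58 was read at the first probe, so the gene was not called in either case.

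The receptor subunits for type I interferon (Ifnar1 and Ifnar2) and for interferon gamma (Ifngr1 and Ifngr2) were not called at any probe. Ifnar2 had 522 and 576 units in the arch pool and 515 and 457 units in the thoracic pool. The regions were nearly equal on array 1 (0.02) and apart on array 2 (0.33), and a dimmer Ifnar2 probe gave −0.01. Ifngr1 measured 0.08 ± 0.10, Ifngr2 0.01 ± 0.04 and Ifnar1 −0.05 ± 0.06, each with arrays of opposite sign. A dimmer probe of Ifngr2 gave −0.14 ± 0.01.

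Transcription factors were also close to equal in the regions, with 0 of 8 called and 4 above 0 on both arrays. Irf9, which gives the complex with STAT2 its DNA binding, had 140.1 and 160.5 units in the arch pool and 139.6 and 120.5 units in the thoracic pool. Its regions were equal on array 1 (0.00) and apart on array 2 (0.41), so that the mean of 0.21 ± 0.20 rests on array 2. Stat2, its partner, measured 0.00 ± 0.00. Irf2, which can repress interferon-induced genes, measured 0.13 ± 0.06 and Irf5, which acts downstream of Toll-like receptors, 0.07 ± 0.01. Irf1, an interferon gamma target and activator, was at 0.07 ± 0.11.

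Irf3 is the factor that starts interferon transcription after sensing, and it measured −0.02 ± 0.13. Irf7, the interferon-induced factor that amplifies that response, had 68.7 and 80.1 units in the arch and 73.3 and 72.5 units in the thoracic aorta (0.03 ± 0.12). It was well above background in the arch on 1 of the 2 arrays, which limits what its ratio can show. Irf8, a factor of myeloid cells, measured 0.01 ± 0.08. Second probes of Irf1 (−0.01), Irf3 (0.02) and Irf8 (−0.02) had the opposite sign to the first, at ratios near 0.

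Isg15 encodes a ubiquitin-like protein that is joined to other proteins after interferon exposure, and Usp18 the protease that removes it and restrains the type I receptor. Isg15 had 106 and 132 units in the arch pool, against 102 and 125 units in the thoracic pool (0.07 ± 0.01). Usp18 had 97.0 and 101 units in the arch and 87.9 and 80.8 units in the thoracic aorta (0.23 ± 0.09). Both genes were higher in the arch on each array, as were 28.4% of all genes.

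The IFIT proteins bind viral RNA with foreign ends and block its translation. Ifit1 had 124 and 135 units in the arch pool, against 99.3 and 101 units in the thoracic pool (0.37 ± 0.05). Ifit3 had 460 and 432 units in the arch and 360 and 367 units in the thoracic aorta (0.29 ± 0.06). Both were higher in the arch on each array, below 1.5-fold. Ifit2 had 115 and 110.1 units in the arch and 114 and 108 units in the thoracic aorta (0.02 ± 0.01), so that the IFIT genes did not share 1 ratio. A dimmer probe of Ifit3 gave a smaller ratio than the first (0.07 ± 0.04), and a second probe of Ifit2 gave −0.08. With each gene read at its brightest kept probe, Ifit1 is the member whose call turned on the processing. The scanner software's own ratio for it was 0.74 ± 0.03 and met the rule. With those ratios 2 members were called higher and 0 lower, where 0.711% of all genes were called higher and 0.599% lower. With an offset of 0 Ifit1 measured 0.66 ± 0.09 and did not meet the rule on both arrays. Ifi27l2a was then the 1 call (0.548% of all genes higher and 0.487% lower).

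Other RNA-directed effectors were Eif2ak2 (PKR), the kinase that halts translation on binding double-stranded RNA, and Isg20, an exonuclease. Eif2ak2 had 89.8 and 101 units in the arch pool and 75.2 and 112 units in the thoracic pool. It was higher in the arch on array 1 (0.26) and lower on array 2 (−0.15). Isg20 had 255 and 294 units in the arch and 291 and 310 units in the thoracic aorta, and its ratio of −0.13 ± 0.06 was the lowest of the members, with −0.06 at its other probe.

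The 2′-5′ oligoadenylate synthetases make the second messenger that switches on RNase L. Oas1a (0.07 ± 0.06), Oas2 (0.06 ± 0.03) and Oas3 (0.04 ± 0.03) were near 0, and Oasl2, a synthetase-like protein, had 111 and 131 units in the arch pool, against 90.0 and 111 units in the thoracic pool (0.27 ± 0.03). Oasl2 was higher in the arch on each array. All 4 OAS genes were above 0 on both arrays, although with median centring Oas1a was −0.01 on array 1. Oas1g and Oasl1 were not measured, because their single probes were not well above background on both arrays in either region. The Oas1 genes are near-identical copies, which the probes may not tell apart.

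Mx1 and Mx2 are dynamin-like GTPases that block viral replication. Mx2 had 124 and 123 units in the arch pool and 102 and 109 units in the thoracic pool (0.23 ± 0.06). It was higher in the arch on each array. Mx1 had 75.3 and 71.3 units in the arch and 76.1 and 70.0 units in the thoracic aorta (0.01 ± 0.02).

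The probes of Ifit1, Usp18, Oasl2 and Mx2 were dim, and their ratios were smaller with the offset of 50 than without it. With the scanner software's ratios Usp18 measured 0.56 ± 0.23, Oasl2 0.54 ± 0.05 and Mx2 0.46 ± 0.11. All 3 kept the higher level in the arch, and all 3 stayed below 1.5-fold on at least 1 array. For the brighter probes of Bst2 (0.39 ± 0.07) and Ifit3 (0.35 ± 0.09) the scanner software's ratios moved less.

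**Figure D3:**
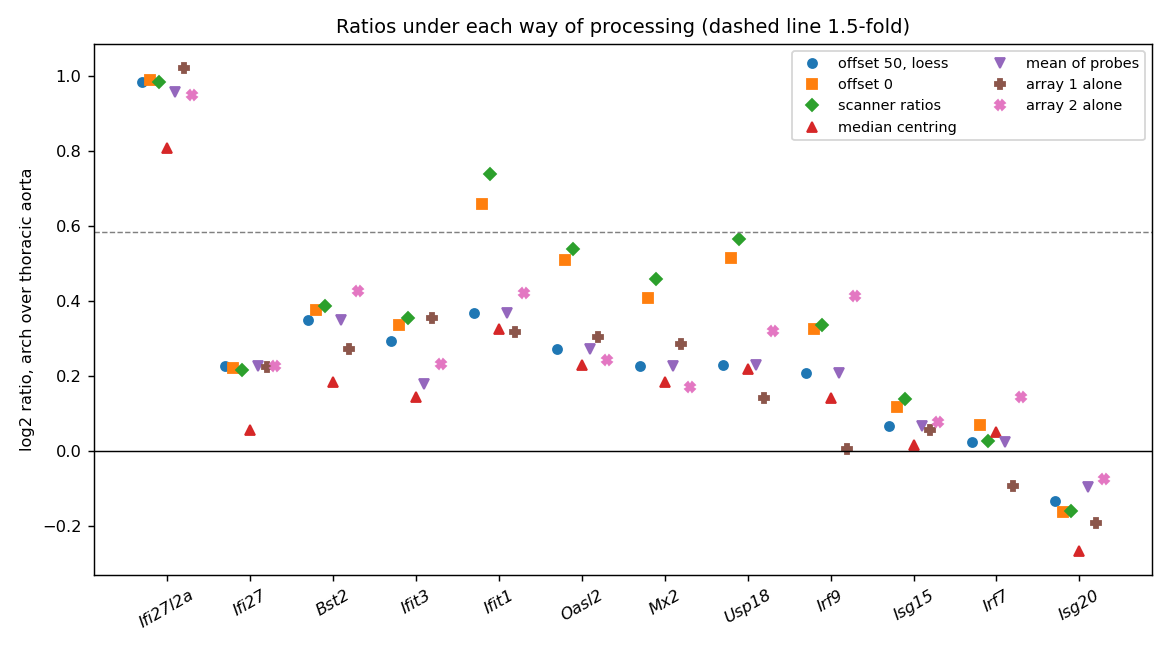
Log2 ratio of arch over thoracic aorta for 12 members under 7 ways of processing, with the dashed line at 1.5-fold. Ifi27l2a stays above the line in every case, Ifit1 passes it with an offset of 0 and with the scanner software's ratios as a mean over arrays, and median centring lowers Ifi27l2a to 0.81.

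Immunity-related GTPases and guanylate-binding proteins attack the vacuoles of intracellular microbes and are targets of interferon gamma. Irgm1 had 266 and 209 units in the arch pool, against 240.1 and 180.1 units in the thoracic pool (0.18 ± 0.03), and its second measured probe gave 0.21 ± 0.04. Ifi47, an immunity-related GTPase, measured 0.17 ± 0.07. Gbp2 (0.14 ± 0.01) and Gbp3 (0.13 ± 0.01) had nearly the same ratio on both arrays, and both turned to −0.01 and 0.00 with median centring. Igtp, also known as Irgm3, measured −0.05 ± 0.07 with arrays of opposite sign. None of the 5 was called, and the 4 above 0 on both arrays differed by less than 1.2-fold.

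Membrane effectors include Bst2 (tetherin), which holds budding virus particles at the cell surface, the IFITM proteins, which hinder viral fusion, and Rsad2 (viperin), an enzyme of lipid droplets and endoplasmic reticulum. Bst2 had 807 and 862 units in the arch pool, against 668 and 641 units in the thoracic pool (0.35 ± 0.08). Bst2 was higher in the arch on each array. Ifitm1 (0.01 ± 0.01), Ifitm3 (0.09 ± 0.10) and Ifitm2 (−0.09 ± 0.11) each had arrays of opposite sign. A second Ifitm2 probe gave −0.43 on array 1 and 0.33 on array 2. Rsad2 had 160.4 and 163 units in the arch and 166 and 167 units in the thoracic aorta (−0.04 ± 0.01), with its other probes at −0.01 and 0.01.

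Ifi27l2a is the member with the largest difference and the 14th highest ratio of all 21367 genes. Its brightest probe had 7547 and 8426 units in the arch pool, against 3720 and 4368 units in the thoracic pool. The ratios were 1.02 on array 1 and 0.95 on array 2, with a mean of 0.98 ± 0.04. Other probes of the gene had 4858 and 4762 units in the arch against 2437 and 2469 units in the thoracic aorta (0.97 ± 0.02), and 3759 and 3373 units against 1917 and 1869 units (0.91 ± 0.06). The 3 probes thus agree within 0.07 of each other, and each of them was higher in the arch on each array. The ratio was 0.99 with an offset of 0, 0.98 with the scanner software's ratios and 0.81 with median centring. Of the 3 probes 2 carry the RefSeq accession of Ifi27l2a and the third the accession of a cDNA clone, all under the older name Ifi27.

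Ifi27, the gene named D12Ertd647e on the array and a relative of Ifi27l2a, had 7131 and 7039 units in the arch and 6103 and 6009 units in the thoracic aorta (0.23 ± 0.00). It was higher in the arch on each array, at 1.17-fold, but with median centring its ratios were 0.22 on array 1 and −0.11 on array 2. The third gene of the family, Ifi27l2b, which is no member, measured 0.12 ± 0.03. The remaining induced genes, Ifi44 (0.09 ± 0.00) and Ifi35 (0.08 ± 0.01), a binding partner of NMI, were each 1.06-fold higher in the arch on average, and Ifi35 turned to −0.02 with median centring.

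**Figure D4:**
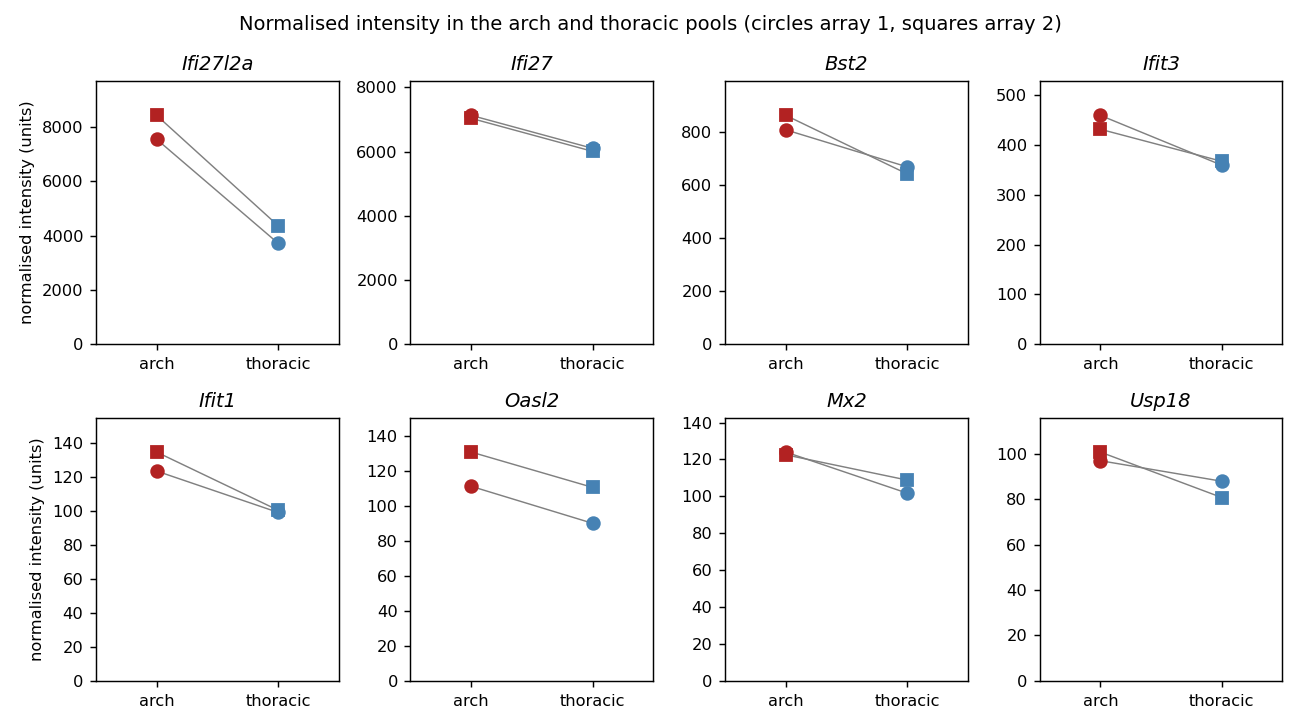
Normalised intensity of 8 members in the arch pool (left, red) and the thoracic pool (right, blue) on array 1 (circles) and array 2 (squares), with each array's values joined and each axis starting at 0. The arch values of Ifi27l2a, 7547 and 8426 units, stand apart from its thoracic values, 3720 and 4368 units, while the other genes differ by smaller steps and Oasl2 varies about as much between arrays as between regions.

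Probes of 1 gene did not always point the same way. Of 14 members with at least 2 kept probes, 9 had probes whose mean ratios differed in sign. These were Ddx58, Trim25, Ifnar2, Ifngr2, Irf1, Irf3, Irf8, Ifit2 and Rsad2. The 5 whose probes shared a sign were Ifi27l2a, Ifit3 and Irgm1 above 0 and Isg20 and Ifitm2 below 0. A further 24 members have 1 probe on the array.

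Genes of the same pathway outside the member list were grouped in 3 further lists, and 0 of their 69 measured genes were called. For signal transduction 18 of 20 genes were measured, with a median ratio of −0.06, 1 above 0 and 7 below 0 on both arrays. Socs3, a feedback inhibitor of cytokine receptors, had 165 and 146 units in the arch pool, against 223 and 219 units in the thoracic pool (−0.51 ± 0.07). It was lower in the arch on each array, and it met the rule with an offset of 0 or with the scanner software's ratios. Ptpn2, a phosphatase that switches off Janus kinases, measured −0.17 ± 0.03, and Il10rb, a receptor chain for interferon lambda and interleukins, 0.16 ± 0.03. Socs1, another feedback inhibitor, measured 0.10 ± 0.10 with arrays of opposite sign.

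Nucleic acid sensing genes, all 18 of them measured, had a median of −0.01, with 4 above and 5 below 0 on both arrays. The farthest from 0 were the kinase adaptors Azi2 (−0.13 ± 0.05) and Tank (−0.09 ± 0.07) and Toll-like receptor Tlr3, which senses double-stranded RNA (0.08 ± 0.02). Other interferon-induced genes numbered 33 measured of 40, with a median of 0.01, 11 above and 5 below 0 on both arrays. Lgals3bp, a secreted glycoprotein that binds galectins, had 663 and 654 units in the arch pool, against 448 and 466 units in the thoracic pool (0.53 ± 0.04). The arch was higher on each array, in both cases by less than 1.5-fold. The thiol reductase Ifi30 (−0.22 ± 0.09) and the chemokine Ccl5 (−0.21 ± 0.03) were the lowest of that list.

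**Figure D5:**
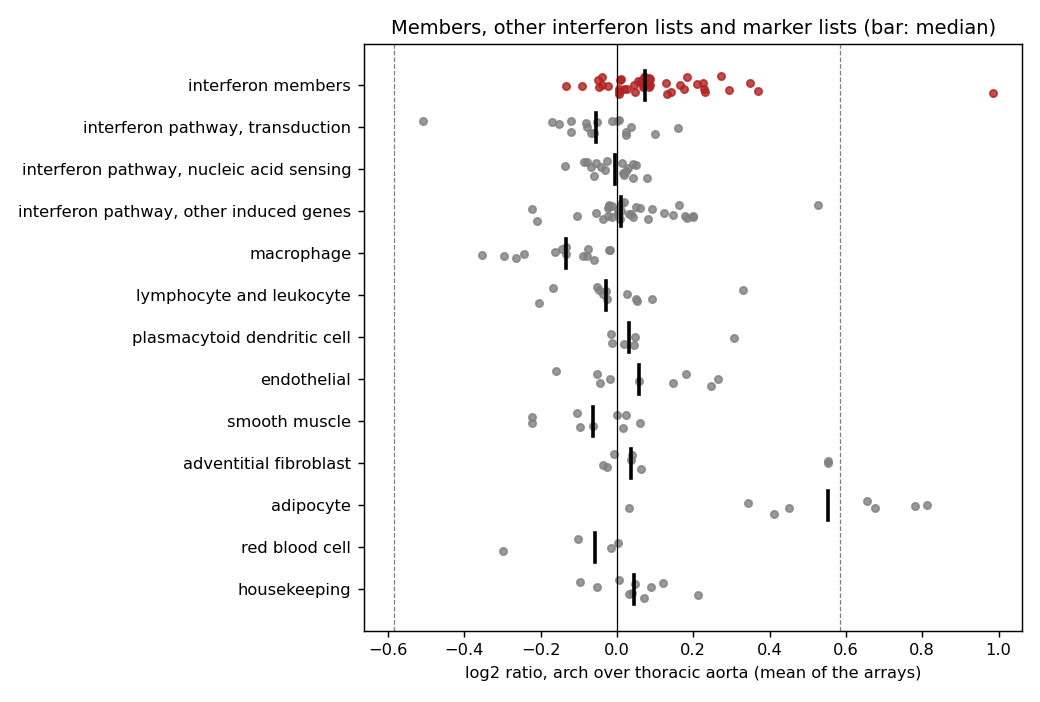
Mean log2 ratio of arch over thoracic aorta for each measured gene of the interferon members (red) and of the other lists (grey), with bars at list medians and dashed lines at 1.5-fold. The members' median of 0.07 lies above those of the 3 other interferon lists, adipocyte markers lie farthest to the right with a median of 0.55, and all 14 macrophage markers lie left of 0.

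Markers of other cells in the vessel wall differed between the same pools, and their part in the interferon ratios was not tested. Adipocyte markers were above 0 on both arrays in 8 of 8 genes, with summed intensities of 34703 and 33228 units in the arch and 24314 and 25688 units in the thoracic aorta. Of them Cidea (0.81), Cox8b (0.78), Plin1 (0.68) and Adipoq (0.66) were called higher. Macrophage markers were below 0 in 14 of 14 genes, 11 of them on both arrays, with a median of −0.13 and 0 called. Their sums were 26129 and 23766 units in the arch and 29371 and 30701 units in the thoracic aorta. Lyz2 made up most of these sums, with 20360 and 18256 units in the arch against 22858 and 24475 units in the thoracic aorta. Tyrobp (−0.35) and Lyz2 (−0.29) were the farthest from 0.

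Lymphocyte and other leukocyte markers (12 measured, 0 called) had a median of −0.03, with sums of 2206 and 2115 units in the arch and 2180 and 2094 units in the thoracic aorta, and with Ms4a1 at 0.33 and Ptprc at −0.20. For plasmacytoid dendritic cells, which release large amounts of interferon, 6 of 7 markers were measured, with a median of 0.03 and 0 called. Their sums were 1004 and 1074 units in the arch and 913 and 968 units in the thoracic aorta. Most of the difference between these sums lay in Tcf4. Tcf4 had 460 and 516 units in the arch against 375 and 413 units in the thoracic aorta (0.31). Ly6d measured 0.05 and the defining marker Siglech −0.02. The endothelial median was 0.06 with 0 called, with Vwf at 0.26 and Emcn at 0.25. Of the 9 measured endothelial markers 4 were above 0 and 2 below 0 on both arrays, with a lowest ratio of −0.16. Their sums were 998 and 1041 units in the arch and 949 and 981 units in the thoracic aorta. For adventitial fibroblasts (8 measured, 0 called) the median was 0.04, with Pdgfra and Lum at 0.55 each. Of these 8 markers, 6 had a mean ratio within 0.2 of 0, and 3 had a mean below 0. Red blood cell markers (4 of 5 measured, 0 called) had a median of −0.06 with Alas2 at −0.30 and Hba-a1 at −0.10, and housekeeping genes (10 measured, 0 called) a median of 0.04 with Actb at 0.21 and B2m at 0.12. The ratios of Myh11 and Des among the smooth muscle markers were −0.22 each.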

How the data were processed

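Per the labels' protocols, RNA pools of both regions were amplified and labelled from 1 µg each, with RNA integrity numbers from 7.5 to 7.7. The submitters' processing notes name Agilent Feature Extraction 9.1.1.1. As deposited, the scanner files give spot and local background intensity in each dye and, per the file headers, a log10 ratio of processed Cy5 over Cy3 signal. The deposited series table, whose unit and direction are not stated, matched that log10 ratio, with the arch on top, for 99.9% of features per array (within 1e-06), with column medians of 0.

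With limma 3.58.1 in R 4.3.3, background was corrected by normexp (offset 50) and ratios were normalised by loess within each array, with control spots at weight 0. Of 43790 spots a sample, 41534 were gene spots, of which 20 and 4 flagged as outliers were dropped. The sign of array 2 was turned, spots of a probe were averaged, and a probe was kept where either region was well above background on both arrays (30521 of 41150). A gene took its brightest kept probe. Intensities are per channel after loess and Aquantile. Probes were named through RefSeq (22852 by accession, 6729 by name, 3495 by synonym) or kept the file's name (8074). Both arrays count as 1 sample, with 1 pool per region, so no p-value was computed. The number of arrays limits technical precision only. All 43 measured members exceeded the 95th percentile of the 314 negative controls in all 4 channels, and 0 were saturated.

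The members, the pathway and marker lists and the rules were chosen with earlier results of these data known. Named are all members, the called and the 3 farthest genes of each pathway list, and the called and the 2 farthest of each marker list. Socs1, Ifi27l2b, Pecam1, Cdh5 and Siglech were named outside that rule, after their values were seen. Alternatives were other background corrections, ratios, filters, probe rules, folds and single arrays.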

Additional observations from a re-analysis of the deposited data

How the results depend on the processing

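Ifi27l2a was called under every alternative but the 2-fold rule, which left 0 members. The scanner software's ratios and the series table each called 2 members, Ifi27l2a and Ifit1. The members' median of 0.07 was 0.13 with an offset of 0, 0.14 with the scanner software's ratios, 0.14 with the series table and 0.026 with median centring, and 0.06 to 0.09 on single arrays, where 1 member was called in each case. Against 104 genes called in all, there were 221 with an offset of 0 (117 higher and 104 lower), 280 with the scanner software's ratios and 280 with the series table (152 and 128 each), 246 at 1.3-fold, 24 at 2-fold and 134 to 148 on single arrays. Median centring gave 28 and 75, a share of 27.2% higher against 52.9% with loess. For the 3 other pathway lists, whose alternatives were chosen after seeing the data, 0 calls became 1 with an offset of 0, 1 with the scanner software's ratios and 1 with the series table (Socs3 in each), and 2 at 1.3-fold (Socs3 and Lgals3bp), and stayed at 0 on single arrays. The cause of these shifts was not tested. Of 43 member ratios, 17 moved by more than 1 SD of the arrays with an offset of 0, 19 with the scanner software's ratios, 23 with median centring and 4 as the mean over kept probes. Over all settings 24 of 43 members kept 1 sign, 22 above 0 and 2 below. No paired analysis was possible because there is 1 pool per region. Dim probes limit the precision for most members. The median member probe was 57.6 to 75.6 units above local background per channel, against 38.9 to 55.5 units for all probes. Negative controls had medians of 9.90 to 27.1 units.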
